A study of Mus musculus with 4 samples.

Results

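Hemoglobin and erythroid transcripts were followed in liver libraries of male ob/ob mice on 4 diets, named CD, WD, CD+7KC and WD+7KC. The genes were chosen by symbol: Hba-a1 and Hba-a2 (α-globin), Hbb-bs and Hbb-bt (β-globin) and Alas2 (erythroid 5-aminolevulinate synthase). The files listed 4 of these 5 genes among 24346 gene symbols, and no value was given under the symbol Hbb-bt. All mice were ob/ob, which are obese because they lack leptin, were fed from 6 weeks of age for 4 weeks, and received 1% cholesterol in every diet. CD was chow, WD was a western type diet high in fat, and the +7KC diets contained 0.01% 7-ketocholesterol (7KC), an oxidized cholesterol. WD also differed from CD in sucrose, casein and the kind of fat. Each group had 1 library, so differences rest on single libraries, without replicates and without p-values. How many mice contributed to a library is not given in the sources used here, nor whether blood was flushed from the livers before RNA was isolated.

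Adult hemoglobin is a tetramer of α and β chains, and its messengers are carried by young red cells (reticulocytes) that have lost their nucleus. Alas2 makes the first precursor of heme in red cell precursors, whereas Alas1, the housekeeping form, makes it in hepatocytes and other cells. Globin transcripts in a liver sample are commonly taken as a sign of the blood it holds, although the adult mouse liver can also form red cells under stress. In a bulk sample, fewer cells of a type and less RNA per cell cannot be told apart.

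Values were FPKM, fragments scaled to transcript length and library depth, which allow levels to be compared between genes. Low FPKM values came in steps of whole reads, from which a depth of 9405000 to 12110000 mapped fragments per library was estimated. Between 70.8% and 72.9% of low values lay within 0.1 of a whole read. The depth was chosen to bring low values closest to whole reads, so this share is no independent check of it. Read numbers in the text are estimates from these depths, and their 95% exact (Clopper-Pearson) intervals hold counting error alone, with nothing about differences among animals. Fold changes are differences of log2(FPKM + 0.1), and the added 0.1 shrinks those of low genes. The hepatocyte markers were at the levels of liver in every library, with Alb, the albumin gene, between 30014 and 35981 FPKM, Apoa2 between 18221 and 31252 FPKM and Ttr between 5385 and 7734 FPKM. Because the FPKM sum was lowest under WD+7KC, rescaling to equal sums (TPM) moved the all-gene median on the log2 scale from 0.002 to 0.21 in WD+7KC against WD, and from 0.003 to 0.20 in WD+7KC against CD+7KC. Rescaled values are therefore printed after the fold changes that involve WD+7KC, while counts of genes and figures marked as deposited use the deposited scale.

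The globin genes come in near-identical pairs, and the sequences show how little separates them. Hba-a1 lies on chromosome 11 from 32283511 to 32284465 and Hba-a2 from 32296489 to 32297298 (GRCm38). Both have 3 exons on the plus strand. Over 429 coding bases they differ by 1 substitution, C381T, counted from the A of the start codon with the base of Hba-a1 first, and it leaves the encoded residue the same. Hbb-bs lies on chromosome 7 from 103826534 to 103828096 and Hbb-bt from 103812524 to 103813996, each with 3 exons on the minus strand. Over 444 coding bases this pair also differs by 1 substitution that leaves the residue the same, C417T with the base of Hbb-bs first. The 60 coding bases around each substitution are shown from the GENCODE vM21 transcripts, with the differing base in capitals.
Hba-a1: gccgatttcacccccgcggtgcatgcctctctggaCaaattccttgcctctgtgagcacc
Hba-a2: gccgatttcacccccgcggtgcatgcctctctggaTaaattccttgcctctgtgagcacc
Hbb-bs: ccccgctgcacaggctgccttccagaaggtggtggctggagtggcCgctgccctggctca
Hbb-bt: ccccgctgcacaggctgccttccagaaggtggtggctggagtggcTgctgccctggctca
The reads were 75 bases long. Of the 75-base windows in the Hba-a2 transcript, 389 of 480 (81.0%) also occur in Hba-a1, and of those in Hba-a1, 389 of 625 (62.2%) occur in Hba-a2. For Hbb-bs, 356 of 554 windows (64.3%) occur in Hbb-bt. The files held β-globin under the symbols Hbb-b1 and Hbb-b2 as well, for which no transcript sequence was at hand. Windows that Hbb-bs shares with them were not counted. Windows of Alas2, a gene of 11 exons on chromosome X from 150547375 to 150570638, were shared with no other gene of the annotation (0 of 1963). The level of a single globin gene is therefore uncertain in these files, because the sources used here do not say how reads that fit several genes were divided, and the α and β sums are given beside it.

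The promoters are shown as a description, and whether their letters relate to the levels in the libraries was not tested. Each run holds 250 bases before to 50 bases after the start site of RefSeq (GRCm38.p6), and capitals mark GATAA and CACCC on either strand, the letters bound by GATA and KLF factors in red cell genes.
Hba-a1, chr11:32283422-32283721, plus strand: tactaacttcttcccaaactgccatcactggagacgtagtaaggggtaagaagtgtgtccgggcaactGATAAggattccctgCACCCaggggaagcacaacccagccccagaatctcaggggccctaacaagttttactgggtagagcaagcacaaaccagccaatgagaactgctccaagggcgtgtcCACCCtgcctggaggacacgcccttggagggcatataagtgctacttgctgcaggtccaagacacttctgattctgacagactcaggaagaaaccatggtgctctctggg
Hbb-bs, chr7:103827879-103828178, minus strand: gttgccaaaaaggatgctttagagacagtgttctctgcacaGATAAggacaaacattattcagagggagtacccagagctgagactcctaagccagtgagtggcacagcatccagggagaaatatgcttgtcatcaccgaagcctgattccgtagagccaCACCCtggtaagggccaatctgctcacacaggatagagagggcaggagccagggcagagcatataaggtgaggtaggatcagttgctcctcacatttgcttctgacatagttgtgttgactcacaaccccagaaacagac
Hbb-bt, chr7:103813874-103814173, minus strand: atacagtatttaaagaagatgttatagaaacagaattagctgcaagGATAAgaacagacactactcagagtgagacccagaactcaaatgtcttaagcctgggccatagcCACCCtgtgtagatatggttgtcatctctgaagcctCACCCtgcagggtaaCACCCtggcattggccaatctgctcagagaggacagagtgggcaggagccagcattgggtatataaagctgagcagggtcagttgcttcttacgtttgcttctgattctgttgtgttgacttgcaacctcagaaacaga
Alas2, chrX:150547167-150547466, plus strand: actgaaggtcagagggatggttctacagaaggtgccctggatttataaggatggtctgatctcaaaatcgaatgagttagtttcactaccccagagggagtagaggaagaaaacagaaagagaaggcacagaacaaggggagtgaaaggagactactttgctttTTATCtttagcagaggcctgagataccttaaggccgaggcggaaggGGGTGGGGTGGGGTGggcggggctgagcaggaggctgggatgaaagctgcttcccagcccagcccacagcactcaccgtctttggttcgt
The windows of Hba-a1 and Hba-a2 share an identical run of 297 of 300 bases, so only the first is printed. Each of the 5 promoters held 1 GATAA, and CACCC occurred 2 times in Hba-a1, 1 time in Hbb-bs, 3 times in Hbb-bt and 3 times in Alas2. Among all 32851 promoter windows of the same length, 25.4% held GATAA, 57.5% held CACCC and 12.6% held both. A match describes the letters only and not a bound site. The leader of the Alas2 transcript carries an iron-responsive element, a hairpin through which iron controls its translation. Its loop letters, in capitals, begin 31 bases before the start codon.
Alas2 leader: gttcgtcctCAGTGCagggcaacaggac

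α-globin was listed almost wholly under Hba-a1. Hba-a1 was at 89.8 FPKM under CD, 54.5 FPKM under CD+7KC, 146 FPKM under WD and 70.0 FPKM under WD+7KC, from about 491, 299, 687 and 423 reads. WD was the highest library and CD+7KC the lowest. At 146 FPKM under WD, Hba-a1 ranked 657 of 14856 genes above 0 FPKM. Hba-a2 was at 0.0422 FPKM under CD, 0.0422 FPKM under CD+7KC, 0.0421 FPKM under WD and 0.0421 FPKM under WD+7KC. These values correspond to 0.14 to 0.18 of a read, below a single read in every library, so that no fold change is given for Hba-a2.

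β-globin was spread over several symbols. Hbb-bs was at 0.00604 FPKM under CD and 0.00593 FPKM under CD+7KC, about 0.028 of a read in each, but at 13.5 FPKM under WD and 10.4 FPKM under WD+7KC, from about 54.2 and 54.0 reads. A level of 3 reads would be 0.64 FPKM under CD and CD+7KC. The symbols Hbb-b1 and Hbb-b2, which name β-globin genes of other mouse strains, held most of the β-globin in the files. Hbb-b1 was at 93.6 FPKM under CD, 72.8 FPKM under CD+7KC, 165 FPKM under WD and 63.6 FPKM under WD+7KC. Hbb-b2 was at 12.0 FPKM under CD, 10.1 FPKM under CD+7KC, 32.0 FPKM under WD and 17.1 FPKM under WD+7KC. How the authors' annotation placed these symbols on the genome is not given in the sources used here, so read numbers and intervals were not estimated for them. Hbb-bs made up 0.0057% of the β-globin sum under CD, 0.0072% under CD+7KC, 6.41% under WD and 11.4% under WD+7KC. In these CD libraries, Hbb-b1 held 88.6% and 87.9% of the β-globin sum, and in the WD libraries 78.4% and 69.8%. Whether reads were divided differently among the β symbols in the 2 diets was not tested.

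Summed over Hbb-b1, Hbb-b2 and Hbb-bs, β-globin was at 106 FPKM under CD, 82.9 FPKM under CD+7KC, 210 FPKM under WD and 91.1 FPKM under WD+7KC. The β sum put the libraries in the order WD, CD, WD+7KC and CD+7KC, and Hba-a1 put them in the same order. The α to β ratio of levels was 0.851 under CD, 0.658 under CD+7KC, 0.697 under WD and 0.769 under WD+7KC. It ranged over 1.29-fold, while the α sum ranged over 2.69-fold and the β sum over 2.54-fold. All 5 listed adult globin symbols together made up 0.020% of the FPKM sum under CD+7KC and 0.051% under WD.

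**Figure D1:**
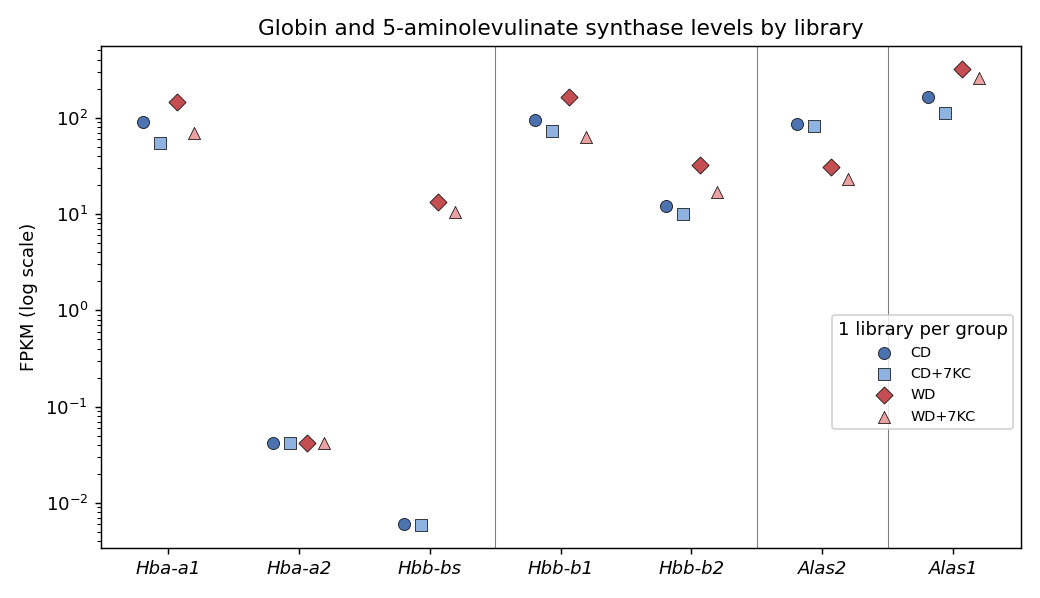
Level of each globin gene, Alas2 and Alas1 in FPKM (log axis), with 1 symbol per library (CD, CD+7KC, WD and WD+7KC, 1 library each). Hba-a1 and Hbb-b1 are highest under WD, Hba-a2 stays at 0.042 FPKM, Hbb-bs lies near 0.006 FPKM in both CD libraries, and Alas2 is lower in both WD libraries.

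Alas2 followed another order. It was at 86.5 FPKM under CD, 81.3 FPKM under CD+7KC, 30.9 FPKM under WD and 23.3 FPKM under WD+7KC, from about 1742, 1642, 535 and 517 reads. Both CD libraries were above both WD libraries. CD and CD+7KC were neighbours that did not differ beyond counting error. Alas2 ranked 994 of 14927 genes under CD and 2611 of 15246 genes under WD+7KC. The ratio of Alas2 to the sum of Hba-a1, Hba-a2 and Hbb-bs was 0.963 under CD, 1.49 under CD+7KC, 0.193 under WD and 0.289 under WD+7KC, a range of 7.71-fold. With Hbb-b1 and Hbb-b2 added to the sum the ratio ranged over 6.82-fold.

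WD against CD asks what the western type diet as a whole did without 7KC. The sum of the listed hemoglobin genes was 160 FPKM under WD and 89.8 FPKM under CD, which is 0.83 on the log2 scale (interval 0.65 to 0.98). Hbb-bs made up 0.0067% of this sum under CD and 8.42% under WD. The sum thus depends on how reads were divided among the β symbols, which the interval does not cover. Hba-a1 was 1.63-fold higher under WD (log2 0.71, interval 0.54 to 0.87), Hbb-b1 1.76-fold and Hbb-b2 2.64-fold. Alas2 went the opposite way, with a log2 fold change of -1.48 (-1.63 to -1.34), a level under WD 0.358 times that under CD. Alas2 was below -1, as were 4.38% of all genes tested. Hbb-bs was formally above 1, as were 5.31% of genes, but it rested on less than 1 read under CD and no fold is given. Among 10860 genes with at least 1 FPKM in either library, 3.04% were above 1 and 2.5% below -1, 6.54% had a higher fold change than Hba-a1 and 1.07% a lower one than Alas2.

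WD+7KC against CD+7KC asks the same with 7KC in both diets. The hemoglobin sum was 80.5 FPKM under WD+7KC and 54.6 FPKM under CD+7KC, 0.56 on the log2 scale (0.32 to 0.75), or 0.77 after rescaling. With Hbb-b1 and Hbb-b2 in the sum it was 0.23, or 0.44 after rescaling. Hba-a1 had 0.36 (0.14 to 0.58), or 0.57 after rescaling. Hbb-b2 had 0.76 (0.97 after rescaling), while Hbb-b1 had -0.20, which became 0.014 after rescaling. The globin genes were thus not of 1 sign in this comparison with the deposited values. Alas2 was lower under WD+7KC, with a log2 fold change of -1.80 (-1.95 to -1.66), or -1.59 after rescaling. It was the only listed gene of the set below -1, as were 4.61% of all genes, and Hbb-bs was above 1, as were 8.01%, again from less than 1 read under CD+7KC. Of 11137 genes with at least 1 FPKM, 6.21% were above 1 and 3.15% below -1, and 0.92% had a lower fold change than Alas2.

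CD+7KC against CD asks what 7KC did in chow. Hba-a1 was lower with 7KC, at a log2 fold change of -0.72 (-0.93 to -0.51), and so were Hbb-b1 (-0.36) and Hbb-b2 (-0.26). The sum of all adult globin symbols was 137 FPKM under CD+7KC and 195 FPKM under CD, a log2 fold change of -0.51. For Alas2 the log2 fold change was -0.089 (-0.19 to 0.008), an interval that includes 0. None of the 4 listed genes was above 1 or below -1, as were 3.84% and 2.91% of all genes, or 1.57% and 1.08% of the 10813 genes with at least 1 FPKM.

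WD+7KC against WD asks what 7KC did in the western type diet. Hba-a1 was lower under WD+7KC, at 70.0 FPKM beside 146 FPKM, with a log2 fold change of -1.06 (-1.24 to -0.89). After rescaling it was -0.85, which is no longer below -1. With scaling to the upper quartile it was -1.02, and with median-ratio scaling -1.06. Hbb-b1 had -1.37, or -1.16 after rescaling, and Hbb-b2 had -0.90, or -0.69. The sum of all adult globin symbols was 161 FPKM under WD+7KC and 357 FPKM under WD, -1.15 on the log2 scale, or -0.93 after rescaling. Hbb-bs, the only β-globin symbol for which reads could be estimated, had -0.37 (-0.94 to 0.21), an interval that includes 0, or -0.15 after rescaling. Alas2 had -0.41 (-0.59 to -0.24), or -0.20 after rescaling. Hba-a1 was the only listed gene below -1, as were 2.79% of all genes, and none was above 1, as were 6.21%. Of 11059 genes with at least 1 FPKM, 3.74% were above 1 and 0.968% below -1, and 0.77% had a lower fold change than Hba-a1. The difference between the 7KC effects, WD minus CD, was -0.27 on the log2 scale for the listed hemoglobin sum (-0.096 after rescaling) and -0.64 for the sum of all adult globin symbols (-0.46 after rescaling). For Hbb-b1 it was -1.01 (-0.83 after rescaling), and for Alas2 -0.32 (-0.15 after rescaling). These differences were not tested. Comparisons that share a library are given side by side and are not independent of each other.

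**Figure D2:**
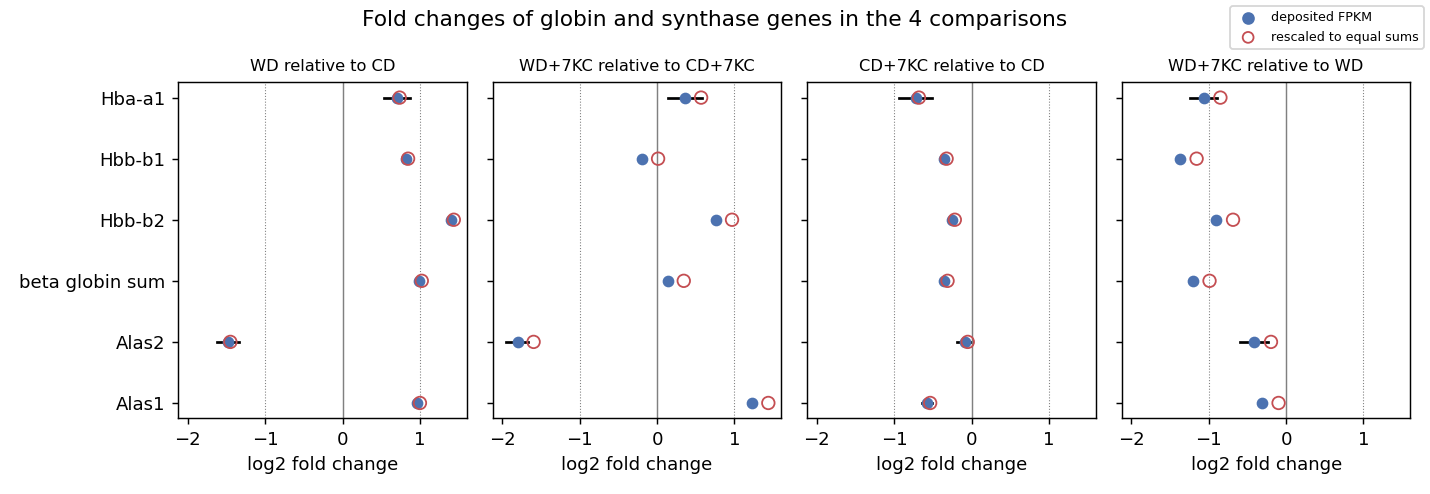
Log2 fold change (horizontal axis) of globin and synthase genes in the 4 comparisons, 1 panel each. Filled points are deposited FPKM, open circles are values rescaled to equal sums, black bars are 95% counting intervals where reads were estimated, and dotted lines mark -1 and 1. Hba-a1, Hbb-b1 and Hbb-b2 lie above 0 in WD against CD and below 0 in both 7KC comparisons, while Alas2 lies near -1.48 and -1.80 in the diet comparisons.

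**Figure D3:**
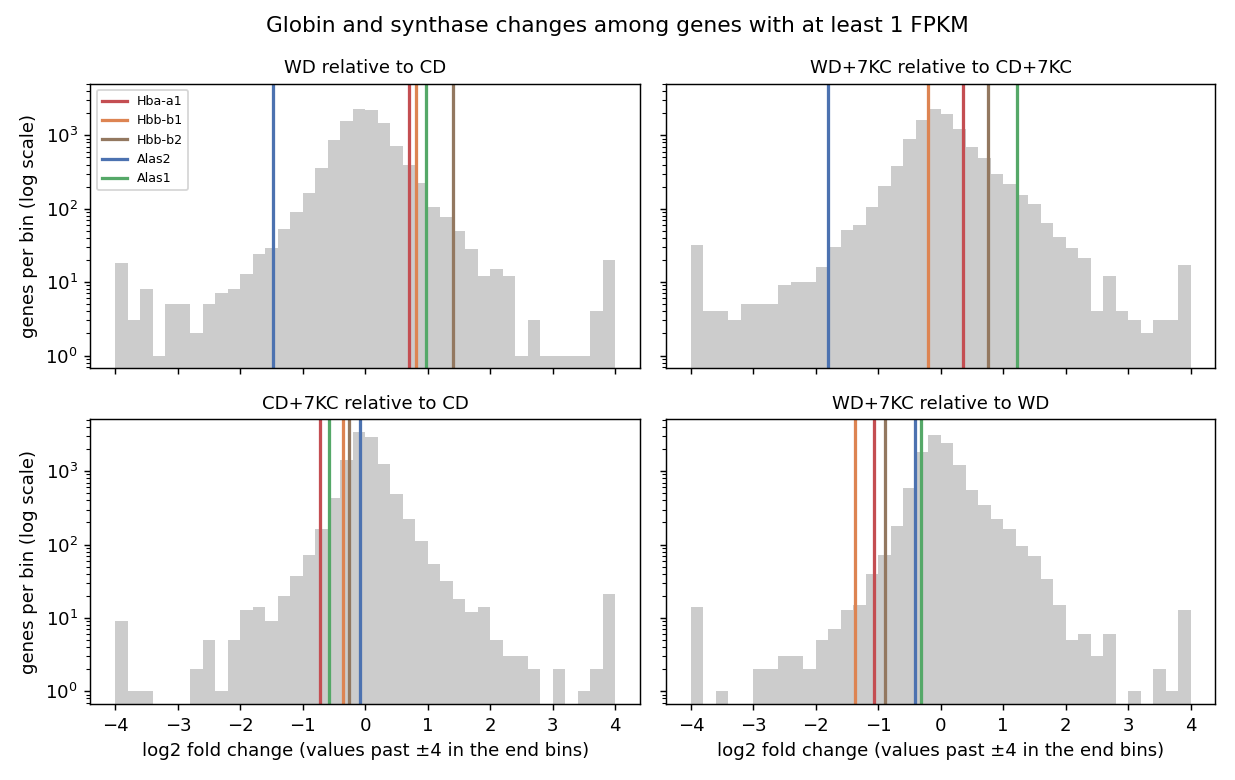
Number of genes (log axis) by log2 fold change among genes with at least 1 FPKM in either library, 1 panel per comparison, with vertical lines for globin and synthase genes. Alas2 sits in the lower tail in both diet comparisons, where 1.07% and 0.92% of genes had lower values, and Hba-a1 and Hbb-b1 sit in the lower tail in WD+7KC against WD.

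Among the other enzymes of heme synthesis, Alas1 was higher in both WD libraries, while Fech and Cpox were lower in both, by less than Alas2. Alas1 was at 165 FPKM under CD, 111 FPKM under CD+7KC, 322 FPKM under WD and 259 FPKM under WD+7KC. It was higher in both WD libraries, by a log2 fold change of 0.97 (0.92 to 1.01) without 7KC and 1.23 (1.18 to 1.28, or 1.44 after rescaling) with 7KC, whereas Alas2 was lower. The ratio of Alas1 to Alas2 was 1.91 under CD and 1.36 under CD+7KC but 10.4 under WD and 11.2 under WD+7KC. Of 7 other heme synthesis enzymes, Alas1 included, 4 were higher and 3 lower in WD against CD, with a list median of 0.073 beside 0.010 for all genes on the log2 scale. In WD+7KC against CD+7KC 5 were lower and 2 higher, the median being -0.43, or -0.23 after rescaling. In WD+7KC against WD 1 was higher and 6 were lower, with a median of -0.22, or 0.00014 after rescaling. Among all genes 50.9%, 50.2% and 50.2% were higher in the same order. The counts in the comparisons that involve WD+7KC depend on the scale, because some of these genes changed sign after rescaling. Fech, ferrochelatase, which inserts the iron into heme, was at 71.5 FPKM under CD, 73.0 FPKM under CD+7KC, 61.1 FPKM under WD and 52.6 FPKM under WD+7KC. Its log2 fold changes between the diets were -0.23 (-0.29 to -0.17) without 7KC and -0.47 (-0.53 to -0.41, or -0.26 after rescaling) with 7KC. Cpox, coproporphyrinogen oxidase, was at 44.4 FPKM under CD, 39.2 FPKM under CD+7KC, 37.4 FPKM under WD and 28.2 FPKM under WD+7KC, the library order of Alas2. Its log2 fold changes were -0.25 (-0.37 to -0.13) and -0.47 (-0.59 to -0.35, or -0.26 after rescaling). Cpox was singled out after its values were seen. Urod, uroporphyrinogen decarboxylase, ranged from 65.6 to 80.2 FPKM and was highest under WD.

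Embryonic and θ-globin genes were not seen. Hbb-y, Hbb-bh1, Hbb-bh2, Hba-x, Hbq1a and Hbq1b were listed at 0 in all 4 libraries. Cygb, cytoglobin, which the stellate cells of the liver make, was at 5.21 FPKM under CD, 2.98 FPKM under CD+7KC, 8.24 FPKM under WD and 6.29 FPKM under WD+7KC, with 1.05 on the log2 scale in WD+7KC against CD+7KC, or 1.27 after rescaling. Ngb, neuroglobin, rested on at most 4.0 reads. Several genes that define nucleated red cell precursors were also at or near 0, though not all. Gata1 and Gfi1b, transcription factors of red cell precursors, were listed at 0 in all 4 libraries, as were Rhag, Kel, Hemgn and Trim58. Slc4a1, picked out after its values were seen, is the band 3 anion exchanger of the red cell membrane and was listed at 0 under CD and CD+7KC and at 0.0485 FPKM under WD and 0.0943 FPKM under WD+7KC, from about 2.0 and 5.0 reads. Of the same list of factors, Tal1 rested on 6.0 to 17.9 reads, and Klf1 reached 1.91 FPKM under CD+7KC. The label erythroid thus rests on the globins, Alas2 and a few low transcripts, while several defining genes of red cell precursors were at 0 throughout. Alas2 did not follow the globins. It was lower in each WD library than in its CD counterpart, while Hba-a1 was higher. In which cells Alas2 was made was not tested.

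Of the erythroid transcription factors, Klf1, which activates adult β-globin, was detectable. Klf1 was at 1.71 FPKM under CD, 1.91 FPKM under CD+7KC, 1.19 FPKM under WD and 0.247 FPKM under WD+7KC, from about 24.9, 27.9, 14.9 and 4.0 reads. Its log2 fold change was -1.90 (-4.32 to -0.62, or -1.82 after rescaling) in WD+7KC against WD and -2.53 (-4.92 to -1.43, or -2.48 after rescaling) against CD+7KC. Both CD libraries were above both WD libraries, as for Alas2, but between CD and WD the interval (-1.55 to 0.46) includes 0. Nfe2, another erythroid and platelet factor, was listed at 0 under CD and CD+7KC and rested on 2.6 and 5.3 reads under WD and WD+7KC. Zfpm1, the GATA1 partner protein that other cells also make, was between 11.1 and 13.6 FPKM. Lmo2, a bridging factor of blood and vessel cells, was between 2.65 and 4.36 FPKM. Epor, the erythropoietin receptor, rested on 6.7 to 16.2 reads. Of the 6 measured genes among the 8 factors and receptor, 3 were higher and 3 lower in WD against CD, and 5 were higher and 1 lower in WD+7KC against WD. Among all genes 50.9% and 50.2% were higher.

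Of 25 red cell membrane and cytoplasm genes, 12 reached 1 FPKM in any library. Car1, red cell carbonic anhydrase 1, was at 3.53 FPKM under CD, 2.92 FPKM under CD+7KC, 2.16 FPKM under WD and 1.01 FPKM under WD+7KC. Its log2 fold change was -0.68 (-1.57 to 0.11) in WD against CD, an interval that includes 0, and -1.45 (-2.65 to -0.56, or -1.28 after rescaling) in WD+7KC against CD+7KC. Prdx2, a peroxidase abundant in red cells and made in other cells too, was between 181 and 212 FPKM, and Bpgm, which makes the phosphate that loosens oxygen from hemoglobin, between 7.06 and 9.85 FPKM. Slc25a37, mitoferrin 1, which brings iron into mitochondria for heme, was at 12.2 FPKM under CD, 12.5 FPKM under CD+7KC, 8.85 FPKM under WD and 9.03 FPKM under WD+7KC. Both WD libraries were lower, by log2 fold changes of -0.46 (-0.67 to -0.26) without 7KC and -0.46 (-0.65 to -0.28, or -0.26 after rescaling) with 7KC. Aqp1, a water channel of red cells and of blood vessel lining, was at 18.2 FPKM under CD, 27.6 FPKM under CD+7KC, 14.0 FPKM under WD and 50.9 FPKM under WD+7KC. Against WD, Aqp1 under WD+7KC had a log2 fold change of 1.86 (1.69 to 2.04, or 2.07 after rescaling), while Hba-a1 was lower. Tmcc2 was at 0.736 FPKM under CD, 0.592 FPKM under CD+7KC, 0.461 FPKM under WD and 1.51 FPKM under WD+7KC, and against WD this was 1.52 on the log2 scale (0.90 to 2.71, or 1.78 after rescaling). Fam46c was at 1.49 FPKM under CD and 0.521 FPKM under WD, -1.36 on the log2 scale. The median log2 value of the list was -0.13 in WD against CD, 0.13 in WD+7KC against CD+7KC (0.29 after rescaling), -0.005 in CD+7KC against CD and 0.11 in WD+7KC against WD (0.27 after rescaling).

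Genes that clear hemoglobin and heme were abundant. Hp, haptoglobin, which binds free hemoglobin, was at 3060 FPKM under CD, 2985 FPKM under CD+7KC, 4757 FPKM under WD and 4580 FPKM under WD+7KC. Hpx, hemopexin, which binds free heme, was at 3017, 3087, 5050 and 4622 FPKM in the same order. Both were higher in the WD libraries, which differed from each other by less than the diets did. Cd163, the macrophage receptor for haptoglobin-bound hemoglobin, was at 1.14 FPKM under CD, 2.91 FPKM under CD+7KC, 0.727 FPKM under WD and 1.91 FPKM under WD+7KC, so that it was higher with 7KC under each diet while Hba-a1 was lower. Hmox1, heme oxygenase 1, which breaks heme down, was at 42.4 FPKM under CD, 19.3 FPKM under CD+7KC, 19.9 FPKM under WD and 33.1 FPKM under WD+7KC. Trf, transferrin, which carries iron in blood, was at 6265, 6512, 8953 and 8786 FPKM in the same order, and the ferritin genes Ftl1 and Fth1 were between 3392 and 8335 FPKM. Spic, a transcription factor of macrophages that clear red cells, was at 0.514 FPKM under CD, 0.854 FPKM under CD+7KC, 1.495 FPKM under WD and 1.78 FPKM under WD+7KC. The log2 fold change of Spic in WD against CD was 1.38 (0.33 to 2.81). Of the 12 clearance genes in the files, 8 were higher and 4 lower in WD against CD, and 6 were higher and 6 lower in WD+7KC against WD. Among all genes 50.9% and 50.2% were higher. The split in WD+7KC against WD depends on the scale. Its list median was 0.0015 on the log2 scale, or 0.22 after rescaling, beside 0.002 and 0.21 for all genes.

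Markers of other blood cells were compared with hemoglobin. The summed level of 11 platelet markers was 5.73 FPKM under CD, 4.42 FPKM under CD+7KC, 8.54 FPKM under WD and 5.23 FPKM under WD+7KC. The order of the libraries matched that by Hba-a1 through Pf4 alone. Without Pf4, left out after the values were seen, the other 10 markers summed to 1.91 FPKM under CD, 3.47 FPKM under CD+7KC, 4.66 FPKM under WD and 2.65 FPKM under WD+7KC, which puts CD lowest. Pf4, platelet factor 4, at 3.82, 0.951, 3.88 and 2.59 FPKM, rested on an estimated 16.2 reads under CD, 4.1 under CD+7KC, 14.2 under WD and 12.2 under WD+7KC. In WD against CD 10 platelet markers were higher and 1 lower, and in WD+7KC against WD 1 was higher and 10 lower. But in CD+7KC against CD, where globin was lower, 8 were higher and 2 lower. The share of all genes that were higher was 50.9%, 50.2% and 49.3% in the same order. Only 4 of the 11 platelet markers reached 1 FPKM in any library, so many of these signs rest on few reads. Ppbp, another platelet chemokine, had a log2 fold change of -2.18 (-5.92 to -0.46, or -2.15 after rescaling) in WD+7KC against WD, from 10.03 and 2.01 reads. The platelet integrin genes Itga2b and Itgb3 were between 0.472 and 1.24 FPKM. The sums of the other lists ranged from 17.0 FPKM under WD to 22.7 FPKM under CD for 12 neutrophil markers, from 2.07 FPKM under CD to 3.82 FPKM under CD+7KC for 8 B cell markers, and from 1.03 FPKM under CD to 3.81 FPKM under WD for 7 T cell markers. Mpo, the myeloperoxidase of young granulocytes, was listed at 0 in all 4 libraries. The sum of 9 markers of resident and red pulp macrophages was 184 FPKM under CD, 304 FPKM under CD+7KC, 341 FPKM under WD and 645 FPKM under WD+7KC. It was higher with 7KC under each diet, where globin was lower, and all 9 markers were higher in each of the 4 comparisons. Among all genes 49.3% to 50.9% were higher. Cd5l, a secreted macrophage protein, was at 30.9 FPKM under CD, 66.3 FPKM under CD+7KC, 81.1 FPKM under WD and 173 FPKM under WD+7KC. Besides Cd5l, the markers above 1 in WD+7KC against CD+7KC were Marco, Adgre1 and the complement genes C1qa, C1qb and C1qc. In WD+7KC against WD they were Clec4f, Timd4 and Adgre1. Above 1 in these comparisons were 8.01% and 6.21% of all genes. Each of these markers had its highest level under WD+7KC.

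The lists of other white cells held few reads. S100a8, a neutrophil alarmin gene, was at 11.8 FPKM under CD, 10.3 FPKM under CD+7KC, 4.58 FPKM under WD and 11.1 FPKM under WD+7KC, with -1.35 (-2.48 to -0.43) in WD against CD and 1.26 (0.37 to 2.40, or 1.48 after rescaling) in WD+7KC against WD. S100a9, its partner, was between 6.62 and 8.40 FPKM, and Csf3r and Retnlg between 0.456 and 1.84 FPKM. Cd3g, a subunit of the T cell receptor complex, was at 1.81 FPKM under WD, from 14.0 reads, and at most 0.503 FPKM in the other libraries, while Cd3d, Cd3e and Lck were between 0.0738 and 0.816 FPKM. The B cell receptor genes Cd79a and Cd79b were between 0.366 and 1.45 FPKM, and Cd22 and Fcmr between 0.164 and 0.827 FPKM. In WD against CD, 7 neutrophil markers were higher and 3 lower, 5 B cell markers higher and 3 lower, and 6 T cell markers higher and 1 lower. Among all genes 50.9% were higher there. The part of blood content in any of these values was not tested.

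**Figure D4:**
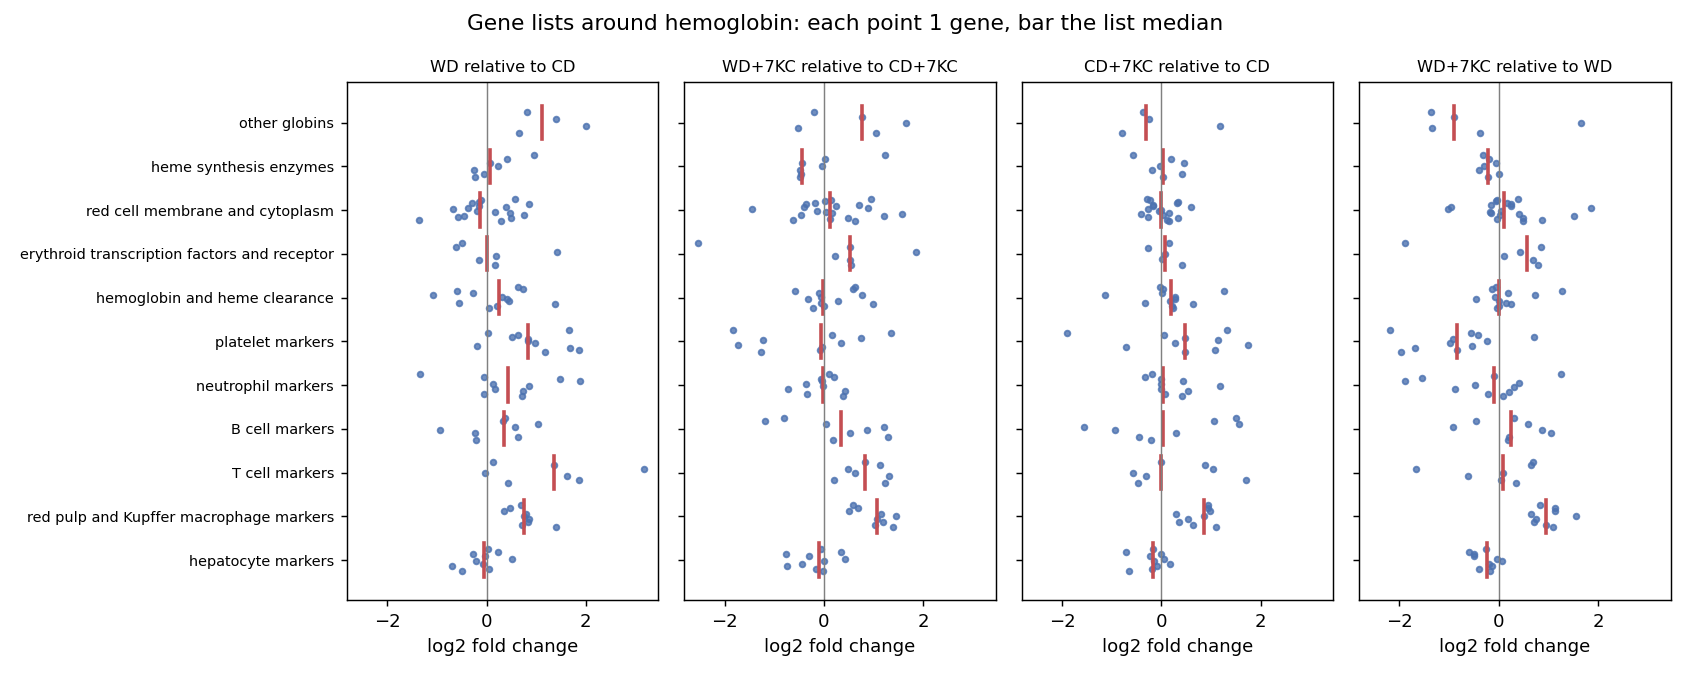
Log2 fold change (horizontal axis) of each gene in the lists around hemoglobin, 1 panel per comparison, with a red bar at the median of each list. Platelet markers have medians of 0.85 in WD against CD, -0.058 in WD+7KC against CD+7KC, 0.48 in CD+7KC against CD and -0.85 in WD+7KC against WD. Only 4 of the 11 platelet markers reached 1 FPKM in any library, so these medians rest on genes of few reads. The macrophage markers lie above 0 in every comparison.

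The genes nearest to the hemoglobin pattern were taken as those with the smallest root mean square distance between centred log2(FPKM + 0.1) profiles over the 4 libraries, taken over 10683 genes whose mean reached 1 FPKM. They were Tmem159 (distance 0.071), A930001C03Rik (0.087), Cela1 (0.089), BC022687 (0.092) and 1700040L02Rik (0.095). Cela1, a pancreatic type elastase, was at 8.07 FPKM under CD, 5.73 FPKM under CD+7KC, 15.0 FPKM under WD and 8.03 FPKM under WD+7KC. Tmem159 rested on 12.7 to 30.7 reads, and its interval in WD against CD, 0.06 to 1.83, was far wider than these distances. None of these 5 was on the erythroid lists. Hbb-b1 and Hbb-b2, which the search did not leave out, were not among them either. With Hbb-b1 and Hbb-b2 added to the sum, Gm14005 (0.033) was nearest and 1700040L02Rik (0.044) second.

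The same measure was applied to Alas2 after its values had been seen. The nearest genes were 9130409I23Rik (distance 0.054), Grik5 (0.095), Marcksl1-ps4 (0.096), Car3 (0.099) and Gnmt (0.11). Car3, carbonic anhydrase 3, which is abundant in hepatocytes, was at 3466 FPKM under CD, 3096 FPKM under CD+7KC, 1190 FPKM under WD and 778 FPKM under WD+7KC. Gnmt, glycine N-methyltransferase of hepatocytes, was at 1382, 1534, 523 and 446 FPKM in the same order. Both were picked out after their values were seen. With 4 libraries many genes can share an order, so likeness is given as a description only.

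**Figure D5:**
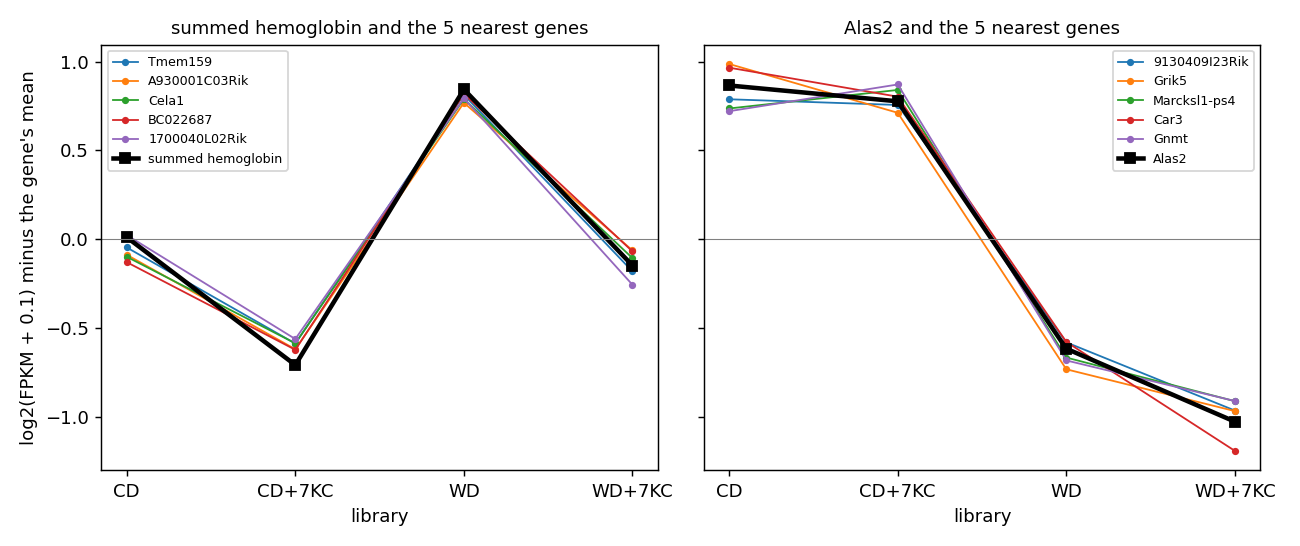
Centred log2(FPKM + 0.1) in the 4 libraries for the summed listed hemoglobin genes (left) and Alas2 (right), in black, with the 5 nearest genes of each in colour. The hemoglobin pattern peaks under WD, while the Alas2 pattern is high under CD and CD+7KC and low under WD and WD+7KC.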

How the data were processed

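RNA was measured in 4 liver libraries, 1 per group, grouped by their titles. The authors prepared stranded mRNA libraries, sequenced 75-base single-end reads and mapped them to mm10 with TopHat2 2.0.13, Bowtie2 2.2.3 and SAMtools 0.1.19. FPKM values were computed by the authors with Cufflinks 2.2.1 and deposited as 1 value per gene symbol. The annotation and the handling of reads that fit several genes are not given in the sources used here, and these bear on the globin pairs. Depth was estimated from the low values among 14038 genes with a single RefSeq mRNA, as FPKM times transcript length minus 200 bases. The share near whole reads was taken over 1322 to 1493 low values per library. Reads of genes with several RefSeq mRNAs, such as Alas2, rest on the longest.

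Fold changes used a pseudocount of 0.1 over genes above 0 FPKM in either library, with a threshold of 1 on the log2 scale and no test. The planned hemoglobin sum of 4 genes was taken over the 3 in the files. Named genes were all members, the highest genes of each list, those past the threshold with at least 1 FPKM, those at 0 throughout and the 5 genes most like summed hemoglobin. Members and lists were chosen with earlier results of these data known. Flvcr1, Epb41, Epb42, Ahsp, Hbb-bh0 and Trbc2 were not analysed here, and 2 genes of the lists are not reported here. Sequences came from GENCODE vM21 and RefSeq, whose promoter table matched 5 of 5 genes. The code was tested on simulated data. Python 3.11.15, numpy 2.4.6, pandas 2.3.3, scipy 1.17.1, Biopython 1.88 and matplotlib 3.10.9 were used. Alternatives were other pseudocounts, scalings, thresholds and filters.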

Additional observations from a re-analysis of the deposited data

Results flagged for a closer look

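Of the genes on the lists, 5 had changes of opposite direction in matched comparisons, with both counting intervals off 0 and with both values more than 0.1 from 0, in opposite directions, after rescaling. Hmox1 had a log2 fold change of -1.13 in CD+7KC against CD and 0.73 in WD+7KC against WD, and -1.08 in WD against CD and 0.78 in WD+7KC against CD+7KC. Blvrb, biliverdin reductase B, had 0.27 and -0.47 with 7KC under CD and WD, and 0.42 and -0.32 between the diets without and with 7KC. Slc40a1, the iron exporter ferroportin, had -0.34 with 7KC under CD and 0.16 under WD. Aqp1 had -0.37 in WD against CD and 0.88 in WD+7KC against CD+7KC. Apob, a hepatocyte gene, had -0.15 with 7KC under CD and 0.066 under WD. With 1 library per group these differences were not tested. Neither the listed hemoglobin genes nor Alas2 did the same.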

How the results depend on the processing

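No paired analysis was possible because each group had 1 library and the labels carry no replicate numbers, and for the same reason no library could be left out. Under 10 alternatives for the hemoglobin sum and 7 for Alas2, every value kept its direction in every comparison. The other pseudocounts among these alternatives cannot change a sign, so they are no check of direction. For Alas2 in CD+7KC against CD the direction lay within counting error. The mean of the 3 genes' log2 fold changes, which gives the sub-read values of Hba-a2 and Hbb-bs equal weight, was 2.57 in WD against CD, 2.33 in WD+7KC against CD+7KC, -0.24 in CD+7KC against CD and -0.48 in WD+7KC against WD. Rescaling to equal sums gave the hemoglobin sum 0.77 in WD+7KC against CD+7KC and -0.77 in WD+7KC against WD, and Alas2 -1.59 and -0.20. Rescaling without the 20 highest genes gave 0.75 and -0.82 for the sum and -1.61 and -0.24 for Alas2. Scaling to the upper quartile gave 0.57 and -0.94 for the sum and -1.79 and -0.36 for Alas2. Median-ratio scaling gave 0.56 and -0.99 for the sum and -1.80 and -0.41 for Alas2. Adding Hbb-b1 and Hbb-b2, or taking Hba-a1 alone, was chosen after seeing the data. The addition gave the sum 0.23 in WD+7KC against CD+7KC and -0.51 in CD+7KC against CD. The difference of the 7KC effects on the sum was -0.64 with Hbb-b1 and Hbb-b2 added and -0.35 for Hba-a1 alone, and between -0.27 and -0.096 under the other pseudocounts and scalings. Counts over all genes depended on the pseudocount. The genes above 1 numbered 828 in WD against CD (150 with a pseudocount of 1, 1575 with 0.01), 1274 in WD+7KC against CD+7KC (316 and 2187), 603 in CD+7KC against CD (65 and 1375) and 978 in WD+7KC against WD (140 and 1907). Those below -1 numbered 683 (137 and 1354), 733 (225 and 1395), 456 (48 and 1005) and 440 (49 and 923) in the same order. Rescaling to equal sums raised the genes above 1 to 2007 in WD+7KC against CD+7KC and 1629 in WD+7KC against WD. Depth limits genes of few reads, such as Klf1 and Pf4, and the division of reads within the globin pairs limits each single globin value.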
